A study of Mus musculus with 2 samples.

Results

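Mir22 is the hairpin gene of miR-22, and it was 1 of 2202 annotated microRNA genes whose reads were counted in mouse adrenal gland. It was chosen by name for its abundance, its ratio between the libraries and its position inside an exon, so its level, its rank and its ratio between the libraries are given as a description, with no test. The tissue came from male B6CASTF1/J mice aged 25 days, first-generation hybrids of C57BL/6J and CAST/EiJ, with no treatment and no second group. There were 2 biological replicates, numbered as separate animals but carrying the same donor entry, so spreads measure the difference between these libraries, which may be technical. The whole gland was taken, with its steroid-producing cortex and its catecholamine-producing medulla, and fewer cells of a type cannot be told apart from less RNA per cell.

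A microRNA is cut from a folded hairpin by Drosha and Dicer, and the mature strand guides Argonaute to messenger RNAs that pair with its seed, bases 2 to 8. MiR-22-3p is the strand usually described as the active product, and it is known for abundance in heart and skeletal muscle and for repressing Hdac4 and Sirt1. Many hairpins sit in introns, and cutting such a hairpin can leave the spliced host transcript whole. Cutting a hairpin out of an exon instead breaks the host transcript.

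The Mir22 hairpin is shown first, as RefSeq gives it for GRCm38.p6 at chr11:75463716-75463810 on the plus strand, with both mature strands in capitals. It is identical in sequence and start to the hairpin of ENSMUSG00000065529.1 in the annotation M21 used for counting.
Mir22 hairpin: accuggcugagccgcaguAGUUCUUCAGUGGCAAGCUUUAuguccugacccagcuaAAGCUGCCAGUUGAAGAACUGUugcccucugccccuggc

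The mature strands follow, with the seed in capitals, because the seed decides which other microRNAs could share targets with Mir22.
miR-22-5p: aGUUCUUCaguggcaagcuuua
miR-22-3p: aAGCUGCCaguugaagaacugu
Both strands are 22 bases long. The predicted fold of the hairpin (RNAfold) pairs 19 bases of the 5p strand with the 3p strand, and 16 bases lie between the strands. Of 1679 mature microRNA names in the RefSeq table, 0 others carry the seed of miR-22-3p and 0 others carry that of miR-22-5p. By bases 2 to 7 alone, 2 others match miR-22-5p and 0 match miR-22-3p. The counts are per hairpin, so reads of the 3p and 5p strands were not separated here.

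The hairpin has no near copy among the annotated hairpins. The longest run of bases it shares with another is 12, below the 20 bases taken here as the length at which reads may become ambiguous. By that measure 1084 of the 2202 hairpins, and 89 of the 352 detected hairpins, do share bases. A hairpin was called detected with at least 10 sense counts in both libraries. Reads mapped to several places, 27% of input reads in replicate 2 and 31.6% in replicate 1, were not counted per gene. In its other properties Mir22 was unremarkable among detected hairpins. Its GC content of 55.8% lay above that of 71.6% of them, against a median of 50.2%. Its predicted folding energy of -0.44 kcal/mol per base was close to the median of -0.43 kcal/mol per base.

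The hairpin lies in an exon of 2 overlapping genes of the same strand. Mir22hg, a noncoding host gene (ENSMUSG00000085148.1, chr11:75461539-75466676), holds it in exon 2 of both of its transcripts. Tlcd2, a protein-coding gene (ENSMUSG00000038217.13, chr11:75461715-75470899), holds it in exon 2 of a single transcript, which starts near the Mir22hg start. The exon begins 23 bases before the hairpin in these 3 transcripts. It ends 47 bases after the hairpin in 2 of them and 219 bases after it in the other. No gene of the opposite strand is annotated over the hairpin. Counts of the hairpin do not say which of these transcripts it was cut from.

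**Figure D1:**
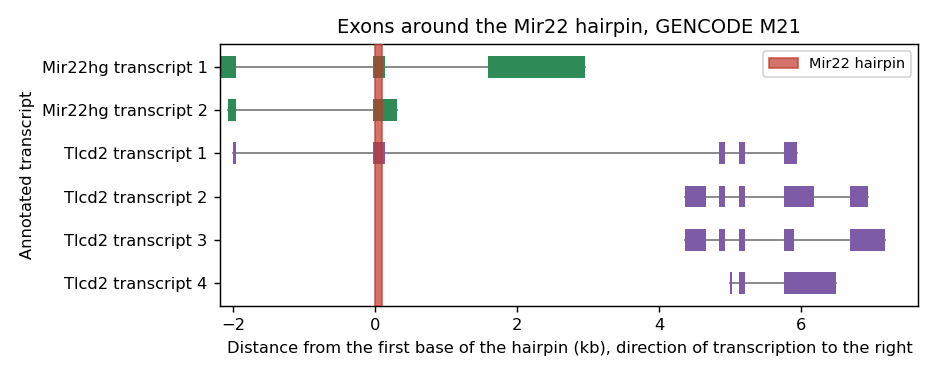
Exons (boxes) of the annotated transcripts of Mir22hg and Tlcd2, plotted by distance in kb from the first base of the Mir22 hairpin. The hairpin (vertical band) lies in exon 2 of both Mir22hg transcripts and of 1 Tlcd2 transcript, while the other Tlcd2 transcripts start downstream of it.

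Mir22 was among the abundant microRNAs of the gland in both libraries, but its level differed between them. Its sense counts were 104399 of 4541373 in replicate 2 and 28923 of 3588361 in replicate 1. As counts per 1000000 assigned sense counts (CPM), that was 22988 CPM in replicate 2 (22851 to 23127, exact 95% interval) and 8060 CPM in replicate 1 (7968 to 8153). The mean was 15524 CPM ± 10556 (SD, n = 2), so the SD was 68% of the mean. Replicate 2 was the high library and replicate 1 the low one, and their counting intervals lay far apart. Such intervals describe counting error alone, because reads were not tagged with molecular identifiers and PCR copies were counted as separate molecules.

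The hairpin made up 2.3% of sense counts in replicate 2 and 0.806% in replicate 1. That was 206 times the median detected hairpin of replicate 2, which stood at 111 CPM, and 78.2 times that of replicate 1, which stood at 103 CPM. Even in the low library, Mir22 was above 92.9% of detected hairpins. The reads came from the annotated strand without exception. Antisense counts were 0 in both libraries, which allows up to 0.00287% of the counts on both strands in replicate 2 and up to 0.0104% in replicate 1.

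By mean level Mir22 ranked 16 of the 2202 genes. It ranked 14 in replicate 2 and 25 in replicate 1. CPM values were not divided by length, because a microRNA read covers the mature strand whatever the length of the hairpin, and dividing by hairpin length put Mir22 at rank 18. The order around it could not be resolved: 14 detected hairpins, with mean ranks between 1 and 27, had levels whose range over the libraries overlapped that of Mir22. A further 12 hairpins exceeded both Mir22 levels in both libraries.

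The next hairpin below by mean was Mirlet7d, a let-7 family member, with 18259 CPM in replicate 2, against 12679 CPM in replicate 1. Its mean of 15469 CPM was nearly that of Mir22, but its levels lay inside the Mir22 range. The next above was Mir10b, embedded among the Hoxd genes, with 10544 CPM in replicate 2, against 31263 CPM in replicate 1. It was 2.96-fold higher in replicate 1, the opposite direction to Mir22. Mir21a, a hairpin in an exon of Vmp1 known from growth control, had 7728 CPM in replicate 2, against 18167 CPM in replicate 1. Mir22, Mir10b and Mir21a were thus the 3 of the 11 hairpins at ranks 11 to 21 that moved over 2-fold between the libraries.

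The remaining neighbours were steadier. Mir139, hosted by the phosphodiesterase gene Pde2a, had 23158 CPM in replicate 2, against 25866 CPM in replicate 1. Mir375, the islet and neuroendocrine hairpin, had 29004 CPM in replicate 2, against 33380 CPM in replicate 1. Both stood above Mir22 in each library, Mir139 by a small margin in replicate 2. Mir127 of the imprinted Dlk1-Dio3 region, at 13021 CPM in replicate 2, against 13926 CPM in replicate 1, lay inside the Mir22 range, as did Mir99a at 12030 and 13341 CPM and Mir30e at 12993 and 16006 CPM. Mir26b, in a Ctdsp1 intron, stood above Mir22 in each library with 23636 CPM in replicate 2, against 39259 CPM in replicate 1. Mir322, of the X-linked cluster with Mir503, had 19003 CPM in replicate 2, below Mir22 there, and 28629 CPM in replicate 1.

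**Figure D2:**
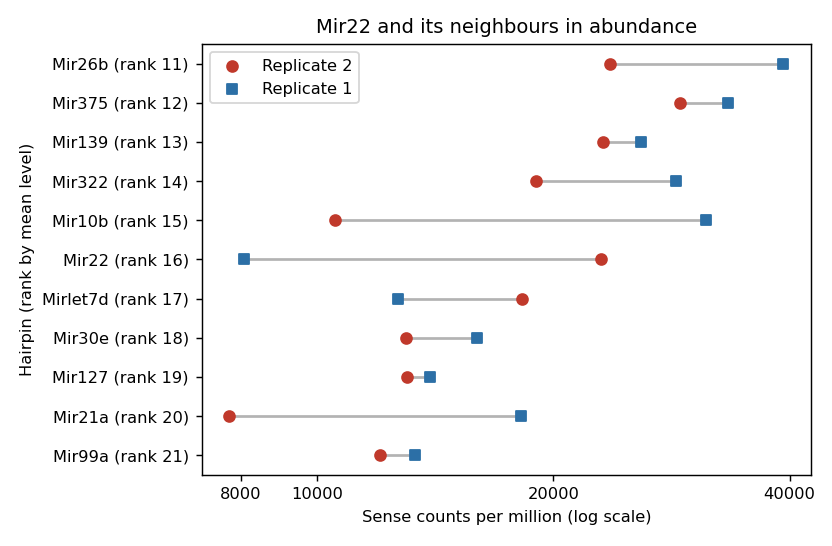
Level of Mir22 and of the 5 hairpins next above and next below it by mean, in CPM on a log axis, with a circle for replicate 2, a square for replicate 1 and a line joining them. The Mir22 line joins 22988 CPM in replicate 2 and 8060 CPM in replicate 1, while Mir10b and Mir21a are wide in the other direction.

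The change of rank can be told by naming the hairpins that Mir22 passed, which needs no library total because it compares counts within a library. In replicate 1, 24 hairpins had more counts than Mir22, and in replicate 2, 13 did. Of those 24, 12 fell below Mir22 in replicate 2 and 12 stayed above it. Mir122, the dominant hepatocyte microRNA, was the 1 hairpin that was below Mir22 in replicate 1 and above it in replicate 2.

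The 12 hairpins that changed sides were Mir322, Mir10b, Mirlet7d, Mir30e, Mir127, Mir21a, Mir99a, Mir30a, Mir335, Mirlet7e, Mir30d and Mir191. Mir22 had 121 counts for every 100 of Mir322 in replicate 2, against 28.2 in replicate 1. It had 297 counts for every 100 of Mir21a in replicate 2, against 44.4 in replicate 1. For Mir191, the closest of them in replicate 1, the numbers were 426 in replicate 2 and 93.7 in replicate 1. These hairpins were picked for crossing Mir22, and each number shares the Mir22 counts, so they describe its change of rank and add no support to it.

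**Figure D3:**
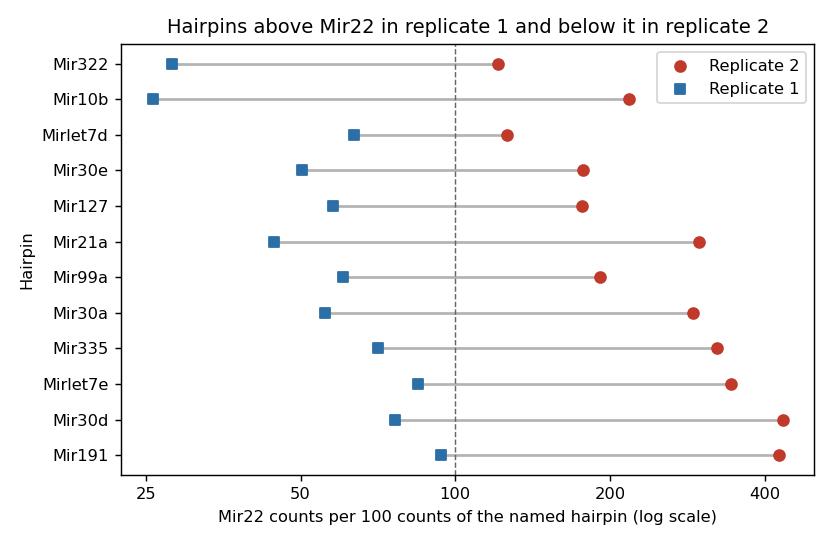
Mir22 counts per 100 counts of each of the 12 hairpins that lay above Mir22 in replicate 1 and below it in replicate 2, on a log axis, with a circle for replicate 2 and a square for replicate 1. The circles lie to the right of the dashed line at 100 and the squares to its left, at 121 to 434 in replicate 2 and 25.8 to 93.7 in replicate 1, as their selection requires.

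Mir22 was 2.85-fold higher in replicate 2 (2.82 to 2.89, exact interval). On the log2 scale with a pseudocount of 1 CPM its ratio was 1.51, against a median of -0.04 over the 352 detected hairpins. Among those, 33 hairpins (9.38%) were over 2-fold higher in replicate 2, Mir22 included, and 26 (7.39%) were over 2-fold lower. The ratio of Mir22 was exceeded by 13 detected hairpins. The ratio was part of the choice of Mir22, so nothing is read from these counts.

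By level, the hairpins with ratios as high as that of Mir22 were placed as follows, again as a description. Of the 71 detected hairpins that averaged 1000 CPM or more, 1 had a higher ratio than Mir22, and that was Mir122. Of the 25 most abundant hairpins, 4 had a log2 ratio above 0 and 2 had one above 1, Mir122 and Mir22. Mir122 had 197553 CPM in replicate 2, against 892 CPM in replicate 1, and it entered the library totals. With Mir122 left out of them, Mir22 had 28648 CPM in replicate 2, against 8067 CPM in replicate 1, a 3.55-fold difference (3.51 to 3.6), and the hairpins over 2-fold higher in replicate 2 numbered 56 (15.9%) and those over 2-fold lower 13 (3.69%). Per 1000000 input reads, there were 10151 Mir22 counts in replicate 2, against 3337 in replicate 1, a 3.04-fold difference (3 to 3.08).

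**Figure D4:**
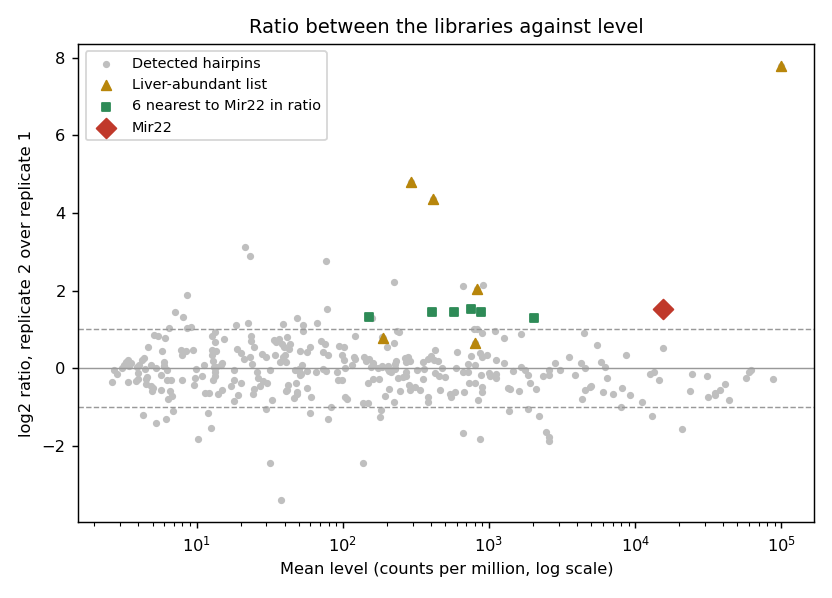
Log2 ratio of replicate 2 over replicate 1 against mean level (CPM, log axis) for the 352 detected hairpins, with Mir22 as a diamond, the 6 hairpins nearest to it in ratio as squares and the detected members of the liver list as triangles. The dashed lines mark a 2-fold difference, and Mir22, at 1.51, stands above them near the right-hand end, where Mir122 at 7.79 is the other high point.

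The 6 hairpins with a ratio nearest to that of Mir22, among 180 others averaging 100 CPM or more, were Mir497, Mir34a, Mir467d, Mir149, Mir24-2 and Mir15a. The measure is a single log2 ratio between 2 libraries, so it describes likeness in these libraries and nothing more. Mir497, also of chromosome 11, had 1126 CPM in replicate 2, against 389 CPM in replicate 1, a log2 ratio of 1.53. Mir34a, a hairpin known as a p53 target, had 839 CPM in replicate 2, against 305 CPM in replicate 1, with 1.46. Mir15a, in an intron of Dleu2, had 2910 CPM in replicate 2, against 1178 CPM in replicate 1, with 1.30. With a mean of 2044 CPM Mir15a was the most abundant of the 6, well below Mir22. Mir149, in an intron of Gpc1, had 1285 CPM in replicate 2, against 473 CPM in replicate 1, while Mir467d, of the Sfmbt2 repeat, and Mir24-2 share bases with other hairpins and rest on unique reads alone.

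The guide strands of these hairpins are shown because 2 of them have the same seed, which resembles that of miR-22-3p. Seeds are in capitals. Mir195a, the neighbour of Mir497 with the same seed, is added.
miR-22-3p: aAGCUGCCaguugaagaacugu
miR-497a-5p: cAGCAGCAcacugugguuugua
miR-15a-5p: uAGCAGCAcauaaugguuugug
miR-195a-5p: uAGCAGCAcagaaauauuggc
miR-34a-5p: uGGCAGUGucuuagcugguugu
miR-149-5p: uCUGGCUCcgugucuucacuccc
miR-24-3p: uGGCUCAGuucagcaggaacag
Position by position, the seed of miR-497a-5p and miR-15a-5p equals that of miR-22-3p at 5 of 7 bases, against 3 for miR-34a-5p and miR-24-3p and 1 for miR-149-5p. A seed that differs at any base is counted as another family.

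RefSeq lists 11 hairpins with the seed of miR-497a-5p and miR-15a-5p, of which 7 were detected, and their median log2 ratio was 0.07. Of the 7, Mir497 and Mir15a had a log2 ratio above 1, as had 9.38% of all detected hairpins, and both were picked for a ratio near that of Mir22. Mir195a had 824 CPM in replicate 2, against 784 CPM in replicate 1, although it lies beside Mir497. Mir16-1, beside Mir15a, had 715 CPM in replicate 2, against 1087 CPM in replicate 1, and it shares bases with another hairpin. Mir322, Mir15b and Mir16-2 had log2 ratios of -0.59, 0.39 and -0.57.

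Mir22 is not part of a hairpin cluster. Chromosome 11 carries 137 annotated hairpins, of which 30 were detected. Mir22 was the next highest after Mir10a by mean, and Mir21a followed it. By library, Mir22 ranked 2 on the chromosome in replicate 2 and 3 in replicate 1, where Mir21a stood above it. It held 29.2% of the chromosome's hairpin counts in replicate 2 and 8.27% in replicate 1.

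The nearest hairpin with counts was Mir132, which is 290 kb upstream and known from neuronal activity and, in rat adrenal, from the response to ACTH. Mir132 had 530 CPM in replicate 2, against 819 CPM in replicate 1, so it was lower in replicate 2, in the opposite direction to Mir22. Mir212, which shares the primary transcript and the seed of Mir132, had 43.4 CPM in replicate 2, against 35.1 CPM in replicate 1, a ratio of 1.24 (0.983 to 1.56) whose interval includes no difference.
miR-132-3p: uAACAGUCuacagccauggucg
miR-212-3p: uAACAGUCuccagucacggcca
They are shown because they are the expressed neighbours of Mir22 and have a seed of their own, equal to that of miR-22-3p at 4 of 7 bases. The hairpins closest on either side, Gm47300 at 145 kb and Mir3971 at 87.6 kb, had 0 counts in both libraries, which allows up to 0.661 CPM in replicate 2, against 0.836 CPM in replicate 1. For Gm47300, which shares bases with another hairpin, no such limit holds. Further downstream, Mir423 had 2143 CPM in replicate 2, against 1174 CPM in replicate 1, and Mir144, a red blood cell hairpin, had 238 CPM in replicate 2, against 279.5 CPM in replicate 1.

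Mir22 was among the leading exonic hairpins. Those lying wholly within an exon of another gene of their strand numbered 281, of which 75 (26.7%) were detected, against 152 of 898 intronic hairpins (16.9%) and 125 of 1023 hairpins outside such genes (12.2%). Detected exonic hairpins had a median of 180 CPM, intronic ones 121 CPM and the rest 94.5 CPM. Mir22 ranked 5 among the exonic hairpins by mean, 5 in replicate 2 and 8 in replicate 1. It held 5.33% of exonic counts in replicate 2 and 3.1% in replicate 1. Mir122 is itself exonic, in the noncoding AC157910.3, and without it the shares of Mir22 were 9.82% in replicate 2 and 3.11% in replicate 1.

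The other leaders of that class were Mir122, Mir126a, Mirlet7b, Mirlet7i and Mirlet7d. Mir126a, the endothelial hairpin in an exon of Egfl7, had 60799 CPM in replicate 2, against 62826 CPM in replicate 1. Mirlet7b, in Lncppara, had 51565 CPM in replicate 2, against 61955 CPM in replicate 1. Mirlet7i, in D630033A02Rik, had 34922 CPM in replicate 2, against 46644 CPM in replicate 1. These 3 were above Mir22 in both libraries and lower in replicate 2. Of the 75 detected exonic hairpins 9 (12%) were over 2-fold higher in replicate 2, a share near the 9.38% of all detected hairpins, and their median log2 ratio of -0.04 was that of all detected hairpins to 2 decimals.

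Hairpins known from cardiac hypertrophy, a setting in which miR-22 has been studied, numbered 16, with 9 detected. Of these, 1 was over 2-fold higher and 1 over 2-fold lower in replicate 2, near the shares of 9.38% and 7.39% over all detected hairpins, and they had a median log2 ratio of -0.47, against -0.04 for all detected hairpins. Mir378a, Mir23a, Mir21a and Mir98 led them. Among the undetected members, Mir499 had 2 counts in replicate 2, against 36 in replicate 1, and Mir208b had 1 count in replicate 2, against 10 in replicate 1, while Mir133a-2, which shares bases with another hairpin, had 0 in both.

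Markers of other tissues moved with Mir22 in part. The 9 liver-abundant hairpins summed to 201553 CPM in replicate 2, against 2040 CPM in replicate 1, of which 4000 and 1148 CPM were from members other than Mir122. None of the 9 was at 0 in either library. Of the 6 detected members 4 were over 2-fold higher in replicate 2, where 9.38% of all detected hairpins were (15.9% with Mir122 out of the totals), and their median log2 ratio was 3.19. Mir101b had 1334 CPM in replicate 2, against 327 CPM in replicate 1, Mir148a had 980 and 623 CPM, and Mir194-2 had 789 and 37.6 CPM. Over the 9 members the fold ran from 1.57 for Mir148a to 221 for Mir122, a wide range that holds Mir22 at 2.85-fold. Between these, Mir101a was 1.73-fold, Mir101b 4.08-fold, Mir194-2 21-fold and Mir192 29.2-fold higher in replicate 2. The undetected Mir802, Mir1948 and Mir194-1 had 270, 113 and 27 counts in replicate 2, against 1, 9 and 1 in replicate 1. The log2 ratio of Mir22, 1.51, was below the median of 3.19. The ratio was part of the choice of Mir22, so nothing is read from its place in that range. The kidney list, which shares Mir192, Mir194-1 and Mir194-2 with the liver list, summed to 1399 CPM in replicate 2, against 106 CPM in replicate 1, while its remaining member Mir204 had 35.7 CPM in replicate 2, against 48.5 CPM in replicate 1. Of its 3 detected members 2 were over 2-fold higher, against 9.38% of all detected hairpins, with a median of 4.35, and both are the members shared with the liver list. The part of RNA from other organs in the Mir22 ratio was not tested.

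In striated muscle miR-22 is known to be abundant. The 11 annotated members of the muscle list summed to 53.1 CPM in replicate 2, against 1061 CPM in replicate 1. Mir206, a skeletal muscle hairpin, had 3 counts in replicate 2, against 3540 in replicate 1, and it carried most of the difference between the sums. Without it the list summed to 52.4 CPM in replicate 2, against 74.4 CPM in replicate 1, and most of that was Mir486. The list had 0 detected members past 2-fold. That count leaves out Mir206, Mir499 and Mir1a-2, each below 10 counts in replicate 2, so it does not show that the list was even. Mir486, which is also an erythroid hairpin and the 1 detected member of the list, had 49.5 CPM in replicate 2, against 54.6 CPM in replicate 1, a log2 ratio of -0.14. Mir499 had 0.44 CPM in replicate 2, against 10 CPM in replicate 1, Mir1a-2, which shares bases with another hairpin, had 0 counts in replicate 2, against 13 in replicate 1, and Mir1b went the other way with 10 counts in replicate 2, against 1 in replicate 1. Mir208b, Mir1a-1, Mir133a-1 and Mir208a were lower in replicate 2, with 1, 0, 0 and 0 counts, against 10, 7, 3 and 1 in replicate 1. Of these, Mir1a-1 and Mir133a-1 share bases with other hairpins. Mir133a-2 and Mir133b, both of which share bases with other hairpins, were at 0 in both libraries. The part of muscle RNA in the Mir22 level was not tested.

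The lists for tissue expected in or around the gland were closer to even. Their counts past 2-fold stand beside shares of 9.38% higher and 7.39% lower over all detected hairpins. The chromaffin and neuroendocrine list, led by Mir375, Mir7b, Mir137 and Mir182, was chosen for the medulla, which was not sampled apart from the cortex. This list was detected in full (8 of 8) and summed to 34383 CPM in replicate 2, against 40675 CPM in replicate 1. It had 0 members over 2-fold higher and 1 over 2-fold lower, with a median of -0.34. The endothelial list, led by Mir126a, Mir130a, Mir221 and Mir222, summed to 68381 CPM in replicate 2, against 68037 CPM in replicate 1, with 4 of 5 detected and a median of 0.35. The adipose list, led by Mir378a, Mir455, Mir193a and Mir193b, summed to 60681 CPM in replicate 2, against 63798 CPM in replicate 1, with 6 of 6 detected and a median of 0.02. In these last 2 lists no detected member was past 2-fold, and the undetected Mir126b of the endothelial list had 40 counts in replicate 2, against 7 in replicate 1.

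Smooth muscle and stromal hairpins summed to 33054 CPM in replicate 2, against 49832 CPM in replicate 1, with 5 of 6 detected, 1 over 2-fold higher, 1 over 2-fold lower and a median of -0.72. Mir143, Mir145a, Mir214 and Mir199b led them, Mir214 being the higher and Mir145a the lower member, and Mir199a-1, which shares bases with another hairpin, was at 0 in both libraries. The blood cell list, led by Mir451a, Mir142, Mir150 and Mir155, summed to 2325 CPM in replicate 2, against 3767 CPM in replicate 1. It had 6 of 6 detected, 0 over 2-fold higher, 2 over 2-fold lower and a median of -0.58. For both lists, the shares over all detected hairpins were 9.38% higher and 7.39% lower. Of the 8 marker lists, the liver and kidney lists were thus the ones whose sum was over 2-fold higher in replicate 2, as Mir22 was. The rise of the kidney sum lay in members shared with the liver list, while Mir204, in the kidney list alone, was lower in replicate 2.

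**Figure D5:**
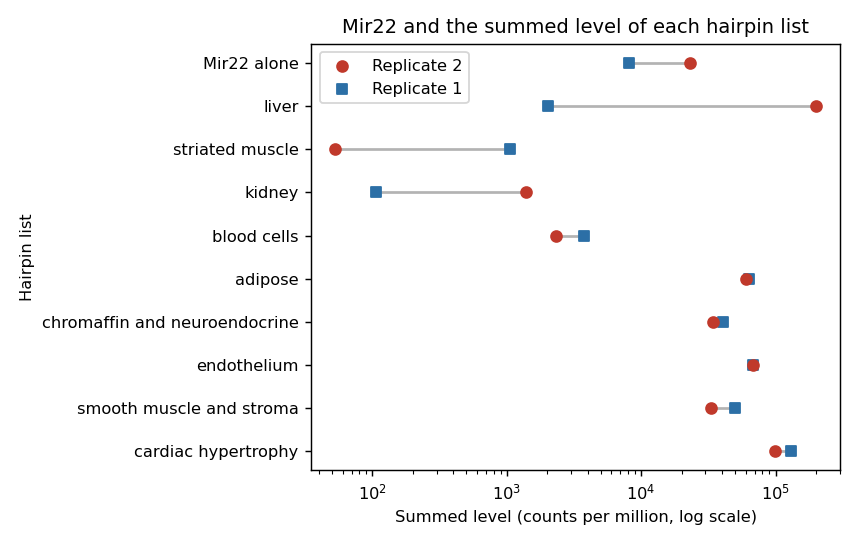
Level of Mir22 (top) and summed level of each hairpin list, in CPM on a log axis, with a circle for replicate 2 and a square for replicate 1. The liver list (201553 against 2040 CPM) and the kidney list (1399 against 106 CPM) are higher in replicate 2, as Mir22 is. The kidney rise lies in members shared with the liver list. The striated muscle list (53.1 against 1061 CPM, mostly Mir206) is lower.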

How the data were processed

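Short RNA of adrenal gland was sequenced in 2 libraries. The deposited values are raw read counts for each annotated hairpin, which the authors made on mm10 with annotation M21, per the text accompanying the tables. No aligner or setting is named in the sources used here. Of 3 count columns, whose strands were read from their values, the sense column was used. The 4 summary lines were left out of totals.

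CPM, ranks, exact Clopper-Pearson intervals and conditional intervals of ratios were computed from sense counts. The interval of the ratio was tested on simulated counts that held counting error alone. That is the error the interval assumes, and PCR copies were not part of the test. Detected means at least 10 counts in both libraries. There was 1 group, so no differential test was made. Named were Mir22, Mir122, 5 hairpins on either side by mean, the 6 nearest in ratio, the 6 leading exonic hairpins, 3 neighbours on either side on chromosome 11 and up to 4 leaders and zeros of each of 9 lists. A further list is not reported here. Hairpins that changed order, seed relatives and further list members were named after their values were seen. Members and lists were chosen with earlier results of these data known. Mir486b was not found in the annotation by that symbol. Sequences are from RefSeq (GRCm38.p6), where 5 of the 6 hairpins nearest in ratio had an entry. Tools were ViennaRNA 2.7.2, Python 3.11.15 with scipy 1.17.1, pandas 2.3.3, numpy 2.4.6 and matplotlib 3.10.9, and, for scaling factors, edgeR 4.0.16 and DESeq2 1.42.0 in R 4.3.3.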

Additional observations from a re-analysis of the deposited data

How the results depend on the processing

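Of 50 alternative values, 36 moved by less than the spread set for them and 14 moved further. Only the log2 ratio has a direction to turn, and it stayed positive in each of its alternatives. The mean level of 15524 CPM stayed within its spread with either library alone, at 8060 or 22988 CPM. With 2 libraries, either level must lie within their SD of the mean. With all input reads as the total the mean level was 6744, again within the spread. The 36 values are therefore no evidence that the level is stable. The log2 ratio of Mir22 between the libraries was 1.83 with totals without Mir122 and also with totals without the 9 liver-list hairpins, 1.60 with all input reads, 1.57 with TMM totals, 1.55 with DESeq2 totals and 1.49 with the either-strand column, against 1.51. Its percentile among detected hairpins was 95.9 with a count minimum of 50, 95.7 and 96.9 with pseudocounts of 0.1 and 10 CPM, and 95.4 without hairpins that share bases, against 96.0. The hairpins over 2-fold higher in replicate 2 numbered 19 with a count minimum of 100 and 56 with totals without Mir122, against 33. Leaving out 1 library gave mean levels of 8060 to 22988 CPM, ranks of 14 to 25 and exonic ranks of 5 to 8, so replicate 2 carries the higher rank. A ratio cannot be had from 1 library. Ranking per hairpin length and counting any overlap with an exon were chosen after seeing the data. No paired analysis was possible because there is 1 group. With 2 libraries, the spread between them, not depth, limits precision.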
